A study of Homo sapiens with 4 samples.

Results

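The genes described here are 10 genes of iron storage, iron uptake and heme breakdown, matched by symbol among the 56657 rows of a gene count table: FTH1, FTL, TFRC, SLC11A2, STEAP3, SLC40A1, IREB2, ACO1, NCOA4 and HMOX1. RNA was sequenced from TE5, an established human line of esophageal squamous cell carcinoma, in 2 libraries of NUP153 knockdown cells carrying hairpin RNA (shNUP153) and 2 libraries of cells carrying a control hairpin (shControl), labelled wild type. Cells of both groups were infected with lentivirus, selected with puromycin and collected at day 7. The labels name neither separate infections or cultures for the replicates nor the hairpin used in each shNUP153 library. The p-values here therefore reflect the spread of these 4 libraries, which may be technical, and effects of a hairpin on other transcripts cannot be told apart from those of NUP153 loss. In bulk RNA, fewer cells with a transcript and less of it per cell cannot be told apart.

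Cells take up iron mainly as transferrin bound to the transferrin receptor, reduce it in endosomes, pass it to the cytosol, and keep what is not used inside ferritin shells built of heavy and light chains. The iron regulatory proteins IRP1 and IRP2 bind a short hairpin, the iron responsive element, when iron is scarce: bound in the 5′ untranslated region (UTR) of a ferritin mRNA it blocks translation, and bound in the 3′ UTR of the transferrin receptor mRNA it keeps the transcript from decay. Heme oxygenase opens the heme ring and frees its iron, and its inducible gene is held down by BACH1 and driven by NRF2, which also drives ferritin genes.

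Iron responsive elements are shown because they mark the mRNA end at which the iron regulatory proteins can bind. The sense strand of GENCODE 29 coding transcripts (GRCh38) was searched for a C, any 5 bases, CAGTG and any 6 bases, where CAGTG opens a 6-base loop and the 5 bases on either side of that loop pair in full (G with T allowed). Of 19684 genes searched, 281 held a match (1.43%). Results for single iron genes were kept for 8 of them, and 3 of these 8 held a match. For these 8, a match crossing an exon boundary was left out, while the count of 281 includes such matches. FTH1 and HMOX1 were not among the 8, so a match in either gene is neither shown nor excluded here. Each line gives the match with its flanks, 5′ to 3′ on the transcript, and capitals mark the loop.
FTL, 5′ UTR, chr19:48965336-48965362, plus strand: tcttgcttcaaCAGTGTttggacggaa
SLC40A1, 5′ UTR, chr2:189580662-189580688, minus strand: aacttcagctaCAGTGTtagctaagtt
TFRC, 3′ UTR, element 1, chr3:196050980-196051006, minus strand: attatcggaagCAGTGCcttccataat
TFRC, 3′ UTR, element 2, chr3:196050576-196050602, minus strand: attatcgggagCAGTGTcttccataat
TFRC, 3′ UTR, element 3, chr3:196050511-196050537, minus strand: tgtatcggagaCAGTGAtctccatatg
TFRC, 3′ UTR, element 4, chr3:196050464-196050490, minus strand: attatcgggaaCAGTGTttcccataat
FTL and SLC40A1 thus each held 1 match ahead of the coding sequence, and TFRC held 4 behind it, present in all 3 of its searched transcripts. A match is a description of letters and pairing, not a measured site, and the gene-level counts hold no separate value for a transcript with or without it. Elements with another loop or an imperfect stem would be missed by this search, so a missing match does not show that a gene lacks an element.

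The target itself was lower. NUP153, which codes for a protein of the nuclear basket of the pore, measured 67.9 and 81.9 CPM (counts scaled to library size) in the shNUP153 libraries, against 148.9 and 141.6 CPM in the shControl libraries, 1.94-fold lower (edgeR quasi-likelihood test, adjusted p = 1.05e-14). Libraries held 22606593 to 27396268 counts. Of 16817 genes with enough counts to test, 2521 were higher (15%) and 2927 lower (17.4%) in shNUP153 at an adjusted p under 0.05, a split that turned to 3177 higher and 2338 lower under upper-quartile scaling and to 3573 and 2114 under total-count scaling. Of 10 squamous epithelial markers 9 passed the filter on low counts, with TP63 at 231 and 238 CPM in shNUP153 and 250 and 246 CPM in shControl, while KRT14 had 6 to 13 counts. Of these 9, 2 rose, KRT17 (0.76 on the log2 scale, edgeR adjusted p = 9.14e-17) and PERP (0.21, adjusted p = 0.000159), and 3 fell, KRT5 (−0.68, adjusted p = 7.40e-07), SOX2 (−0.34, adjusted p = 0.00013) and KRT6A (−0.23, adjusted p = 0.0212). Summed markers of leukocytes, macrophages, erythroid cells, hepatocytes and fibroblasts stayed at or below 1.10 CPM in every library, and the hepatocyte gene HAMP and the fibroblast genes DCN and LUM were at 0. Of 4 endothelial markers the 2 that could be tested both rose: CDH5 measured 22.8 and 22.2 CPM in shNUP153 and 11.3 and 9.64 CPM in shControl (adjusted p = 6.42e-11), and VWF had 58 and 42 counts in shNUP153 and 20 and 38 in shControl (adjusted p = 0.0431). KDR and PECAM1 had at most 3 counts in any library. Whether these marker differences bear on the iron genes was not tested.

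All 10 iron genes passed the filter on low counts. In shNUP153, 6 of the 10 rose, against 15% of all tested genes, and 0 fell, against 17.4% (32.4% in either direction). The 10 were chosen with earlier results of these data known, so these shares are a description only. A rise of 0.4 or more on the log2 scale was called for 3 of the 10, HMOX1, FTH1 and FTL, against 7.06% of all tested genes. That cut was not planned and lies just below the FTH1 and FTL values. The number lower was also 0 at an unadjusted p under 0.05 and by DESeq2 and limma. The 6 that rose were HMOX1, both ferritin chain genes, TFRC, IREB2 and SLC11A2. With DESeq2 the number was 4, IREB2 and SLC11A2 not passing. The median log2 fold change over the 10 was 0.20, beside 0.0054 over all tested genes. For 7 genes that were higher and 1 that was lower, NCOA4, no shNUP153 library fell within the shControl range, beside 64.4% of all tested genes in either direction and 32.2% in the upward one.

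**Figure D1:**
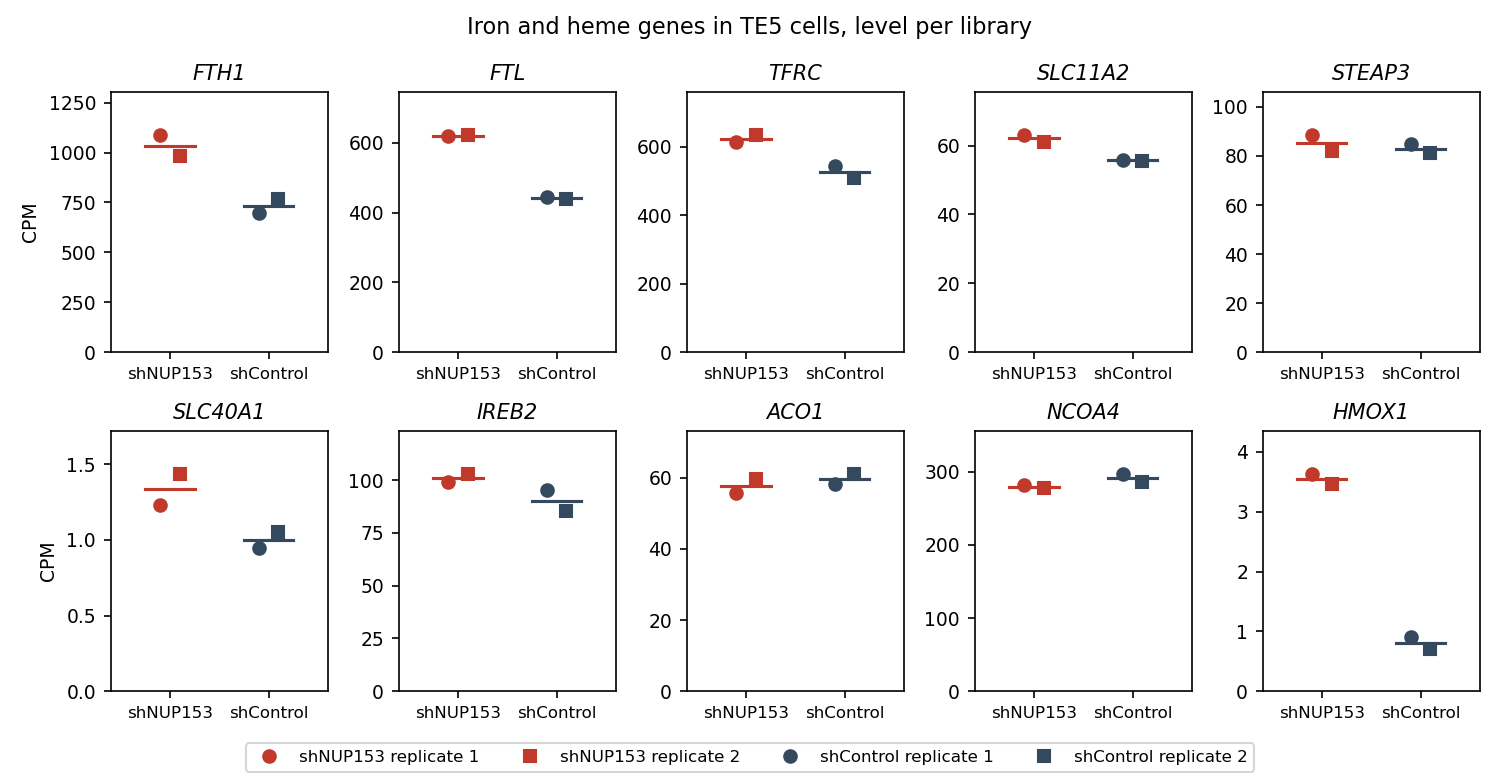
Level of each iron and heme gene in CPM (vertical axes, starting at 0) in the shNUP153 (red) and shControl (dark) libraries; circles and squares are replicates 1 and 2, and bars the group means. FTH1, FTL, TFRC and HMOX1 lie clearly higher in both shNUP153 libraries, while STEAP3 and ACO1 overlap between groups.

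Ferritin transcripts rose by about the same factor for both chains. FTH1 (ENSG00000167996, chromosome 11) codes for the heavy chain, whose ferroxidase site oxidizes iron for storage. FTH1 measured 1086 and 981 CPM in the shNUP153 libraries, against 699 and 767 CPM in the shControl libraries (1033 ± 74.4 against 733 ± 48.5, SD, n = 2 each). The lower shNUP153 library lay above the higher shControl library, and the difference was 1.41-fold, or 0.50 on the log2 scale (SE 0.05, edgeR adjusted p = 2.16e-10). FTL (ENSG00000087086, chromosome 19) codes for the light chain, which helps the mineral core form. It measured 621 and 622 CPM in shNUP153 and 445 and 438 CPM in shControl, replicates lying much closer together than those of FTH1. Its log2 fold change was 0.49 (SE 0.04, 1.41-fold, adjusted p = 1.84e-11).

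The balance between the chains spanned the same range in both groups. The library ratio of FTH1 to FTL counts was 1.75 and 1.58 in shNUP153 and 1.57 and 1.75 in shControl (1.66 ± 0.12 and 1.66 ± 0.13, SD, n = 2 each; exact permutation test, two-sided, p = 1, where 0.333 is the smallest that 2 against 2 allows). Together the chains took 0.175% and 0.163% of all counts in shNUP153, against 0.112% and 0.117% in shControl. Ferritin has many processed pseudogenes, so shared reads could be split between rows by the authors' counting. The 25 FTH1 pseudogene rows summed to 199 and 155 counts in shNUP153 and 119 and 128 in shControl, at most 0.768% of the FTH1 count in any library. The 16 FTL pseudogene rows summed to 71 and 78 counts in shNUP153 and 66 and 71 in shControl, at most 0.669% of FTL. Added to their parent genes, they left log2 fold changes of 0.50 for FTH1 and 0.49 for FTL.

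FTH1 also overlaps BEST1, a chloride channel gene on the opposite strand, by 1267 exonic bases in GENCODE 29. BEST1 had 58 and 33 counts in shNUP153, against 12 and 23 in shControl, beside 28166 and 23271 counts of FTH1 in shNUP153 and 15497 and 20454 in shControl. BEST1 rose by 1.35 on the log2 scale (SE 0.35, edgeR adjusted p = 0.00258), and the call was lost without shNUP153 replicate 1 (0.96, adjusted p = 0.174). As the use of strand in counting is unknown here, reads of the overlap cannot be assigned to either gene. With BEST1 and FTH1 counts summed, the log2 fold change was 0.50.

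TFRC, the transferrin receptor and main entry of iron into growing cells (ENSG00000072274, chromosome 3), also rose. It measured 613 and 633 CPM in the shNUP153 libraries, against 544 and 509 CPM in the shControl libraries, with no overlap. The log2 fold change was 0.24 (SE 0.04, 1.18-fold, edgeR adjusted p = 4.09e-05). Its ratio to FTL counts was 0.987 and 1.02 in shNUP153 and 1.22 and 1.16 in shControl (exact permutation test, two-sided, p = 0.333, the smallest possible). Its ratio to FTH1 counts was 0.565 and 0.646 in shNUP153 and 0.779 and 0.663 in shControl. TFRC, with 4 matches to the iron responsive element in its 3′ UTR, and FTL, with 1 in its 5′ UTR, were both higher in shNUP153. Transcript counts do not measure translation, and binding of the iron regulatory proteins was not tested.

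Downstream of the receptor, the endosomal steps moved little. SLC11A2 (chromosome 12) codes for DMT1, which carries ferrous iron across the endosomal membrane. It measured 63.0 and 61.2 CPM in shNUP153 and 55.9 and 55.5 CPM in shControl, a small rise of 0.16 on the log2 scale (SE 0.06, edgeR adjusted p = 0.046). That call was lost when any 1 of the 4 libraries was left out (adjusted p = 0.0664 to 0.322), with DESeq2 (0.137) and with no filter on low counts (0.135). STEAP3 (chromosome 2), the endosomal ferrireductase, measured 88.4 and 82.0 CPM in shNUP153 and 84.8 and 81.2 CPM in shControl. Its groups overlapped, and the log2 fold change of 0.04 had a 95% interval of −0.08 to 0.16 (adjusted p = 0.644), turning to −0.020 without shNUP153 replicate 1. STEAP3 overlaps STEAP3-AS1 on the opposite strand by 500 exonic bases, and that gene had 4 and 1 counts in shNUP153 and 1 and 8 in shControl.

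Iron export was barely measured. SLC40A1 codes for ferroportin, the only known exporter of iron in vertebrates, and had 32 and 34 counts in shNUP153, against 21 and 28 in shControl (1.23 and 1.43 CPM against 0.947 and 1.05 CPM). The libraries did not overlap, yet the log2 fold change of 0.41 had a 95% interval of −0.27 to 1.08 (edgeR adjusted p = 0.379), so a difference of this size was not detectable at this depth.

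Of the iron regulatory proteins, IREB2 moved slightly and ACO1 did not pass the test. IREB2 (chromosome 15) codes for IRP2, which iron-replete cells degrade. It measured 99.4 and 103 CPM in shNUP153 and 95.3 and 85.5 CPM in shControl, higher by 0.16 on the log2 scale (SE 0.06, edgeR adjusted p = 0.0253). The call was lost without shControl replicate 2 (0.08, adjusted p = 0.356), without shNUP153 replicate 1 (0.127) or replicate 2 (0.268) and with DESeq2 (0.087). ACO1 (chromosome 9) codes for IRP1, which serves as cytosolic aconitase when it holds an iron-sulfur cluster. It measured 55.7 and 59.7 CPM in shNUP153 and 58.2 and 60.9 CPM in shControl, a log2 fold change of −0.05 (95% interval −0.18 to 0.08, adjusted p = 0.6) that turned to 0.015 with total-count scaling. The ratio of IREB2 to ACO1 counts was 1.79 and 1.72 in shNUP153 and 1.64 and 1.40 in shControl.

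NCOA4 (chromosome 10), the receptor that delivers ferritin to lysosomes for breakdown, measured 282 and 277 CPM in shNUP153 and 296 and 285 CPM in shControl. The log2 fold change was −0.06 (SE 0.05, 95% interval −0.15 to 0.03, edgeR adjusted p = 0.361), and 0.0057 with total-count scaling. Its libraries did not overlap between groups, though they lay close. Its 3 pseudogene rows together held at most 6 counts in any library.

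HMOX1 (ENSG00000100292, chromosome 22), the inducible heme oxygenase, showed the largest difference of the 10. It had 94 and 82 counts in the shNUP153 libraries, against 20 and 19 in the shControl libraries, or 3.62 and 3.46 CPM against 0.902 and 0.713 CPM. Both shNUP153 libraries stood well above both shControl libraries. The log2 fold change was 2.14 (SE 0.27, 95% interval 1.59 to 2.69, 4.41-fold, edgeR adjusted p = 8.77e-08), placing HMOX1 at rank 50 of the 16817 tested genes by log2 fold change. A called rise of at least 4-fold, a cut that was not planned and lies just below the HMOX1 value, was seen for 0.351% of them. Macrophages are rich in this enzyme. Of 5 macrophage markers 0 passed the filter on low counts. Their summed level was 0.733 and 0.969 CPM in shNUP153 and 0.496 and 0.338 CPM in shControl. The sum rests on few reads, and its members differ in direction. MARCO had 9 and 7 counts in shNUP153 and 1 and 3 in shControl, and CSF1R 2 and 5 against 8 and 5. The leukocyte gene PTPRC had 0 and 0 counts in shNUP153 and 1 and 3 in shControl. Whether macrophages had a part in the HMOX1 difference was not tested. The level of HMOX1 stayed low, and with 1 CPM added before the logarithm (limma) the difference was 1.33.

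**Figure D2:**
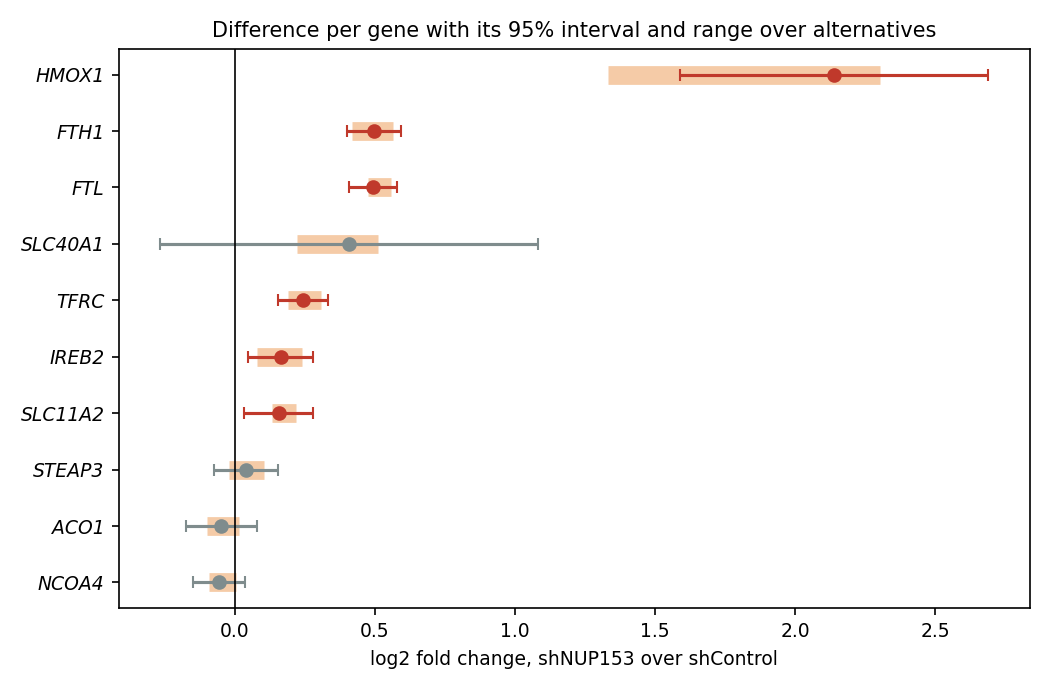
Log2 fold change of shNUP153 over shControl for each iron and heme gene (points; red for adjusted p under 0.05, grey otherwise), with its 95% interval (lines) and the range over the alternative settings (pale bars). HMOX1 stands at 2.14, the ferritin genes near 0.5, and the intervals of SLC40A1, STEAP3, ACO1 and NCOA4 include 0.

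Per kilobase of transcript, taking the longest principal coding transcript of GENCODE 29, the levels spanned a wide range and kept nearly the same order in both groups. FTH1 was highest at 841 CPM per kilobase in shNUP153 and 596 in shControl, followed by FTL at 708 and 503. TFRC stood at 122 in shNUP153 and 103 in shControl, and NCOA4 at 121 and 126, so that these neighbours changed places; in shNUP153 they lay within their SDs (2.8 for TFRC and 1.28 for NCOA4). STEAP3 (21.8 in shNUP153 and 21.2 in shControl), IREB2 (15.9 and 14.2), SLC11A2 (14.9 and 13.4) and ACO1 (7.73 and 7.98) followed. HMOX1 at 1.94 in shNUP153 and 0.443 in shControl and SLC40A1 at 0.387 and 0.290 were the lowest. IREB2 and SLC11A2 lay within the SD of IREB2 in shControl (1.09). FTH1, FTL, TFRC and NCOA4 lie among the 1682 most abundant tested genes, of which 16.3% rose and the median log2 fold change was −0.08.

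**Figure D3:**
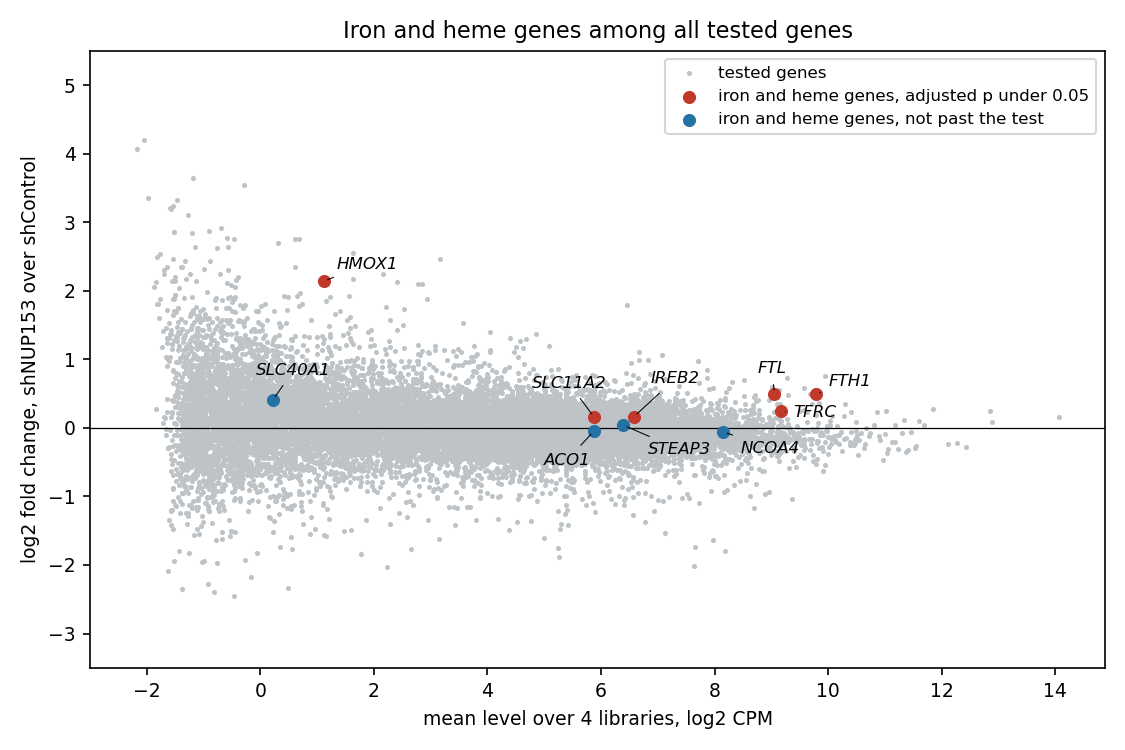
Log2 fold change of shNUP153 over shControl (vertical axis) against mean level in log2 CPM (horizontal axis) for all 16817 tested genes (grey), with the iron and heme genes past the test in red and the others in blue. FTH1, FTL and TFRC lie above 0 among abundant genes, and HMOX1 near the upper edge of weakly expressed genes.

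Further genes came from textbook lists of iron, heme, NRF2 and ferroptosis genes, 95 genes of which 82 could be tested. These lists too were chosen with earlier results of these data known, so the shares of every list are a description only. Over all lists together 18 rose and 21 fell, with a median log2 fold change of −0.03. That is 47.6% called, beside 32.4% of all tested genes (15% higher and 17.4% lower). The NRF2 and BACH1 list held 10 of those that rose and 0 of those that fell. Medians of the lists of iron and heme genes ran from −0.21 to −0.0069. In the list of other heme breakdown and heme transport genes, 1 of 9 rose and 5 fell (median −0.21), 66.7% called beside 32.4% of all tested genes, and these 6 calls dropped to 3 without shNUP153 replicate 1. The riser was SLC48A1, a heme transporter of endolysosomes (0.33, edgeR adjusted p = 0.000617; 0.0557 without shNUP153 replicate 1). HMOX2, the constitutive heme oxygenase, measured 178 and 180 CPM in shNUP153 and 192 and 203 CPM in shControl (−0.14, adjusted p = 0.022), a fall that was lost without shNUP153 replicate 1, shNUP153 replicate 2 or shControl replicate 2 (adjusted p = 0.116 to 0.193), with DESeq2 (0.0555) and under upper-quartile (0.117) and total-count scaling (0.226). HMOX2 counts were 49.1 and 52.1 times those of HMOX1 in shNUP153, against 213 and 285 times in shControl. Also lower were the heme exporter gene FLVCR1 (−0.40, adjusted p = 1.34e-06), the heme-binding PGRMC1 (−0.34, adjusted p = 1.26e-06), the biliverdin reductase gene BLVRA (−0.28, adjusted p = 0.00116) and the transporter gene ABCG2 (−0.24, adjusted p = 0.0381), whose libraries overlapped between groups and whose call was lost without shNUP153 replicate 1 (0.471) or shControl replicate 1 (0.447), with DESeq2 (0.147), upper-quartile (0.0919) or total-count scaling (0.12) and a mean of 5 CPM or more (0.0516).

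Of 8 tested heme synthesis genes 2 passed the test, both lower (median −0.05), 25% beside 32.4% of all tested genes. FECH, which inserts iron into the ring, fell by 0.25 (adjusted p = 0.0312), a call that ended when shControl replicate 1, shNUP153 replicate 1 or shNUP153 replicate 2 was left out (adjusted p = 0.113 to 0.203), with DESeq2 (0.134) and under upper-quartile (0.0789) and total-count scaling (0.119). UROD did not pass (0.14, adjusted p = 0.182), except with total-count scaling (0.20, adjusted p = 0.0406).

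Among 11 tested genes of other uptake, export and systemic iron handling, 2 rose and 4 fell (median −0.05), 54.5% called beside 32.4% of all tested genes. LCN2, a lipocalin that binds iron-loaded siderophores, measured 283 and 272 CPM in shNUP153 and 128 and 154 CPM in shControl (0.97, edgeR adjusted p = 6.71e-16). STEAP4, a plasma membrane ferrireductase, measured 5.82 and 4.80 CPM in shNUP153 and 2.52 and 2.14 CPM in shControl (2.29-fold higher, adjusted p = 7.89e-06). The metal importer gene SLC39A14 (−0.29, adjusted p = 6.12e-05), HFE, whose product binds the transferrin receptor (−0.44, adjusted p = 0.000154), TFR2 (−0.25, adjusted p = 0.00642) and SLC39A8 (−0.24, adjusted p = 0.0293) fell. Without either shNUP153 library the calls for TFR2 (adjusted p = 0.0892 and 0.0691) and SLC39A8 (0.206 and 0.116) were lost, and that of SLC39A8 also without shControl replicate 2 (0.188), with DESeq2 (0.129) and under upper-quartile (0.0778) and total-count scaling (0.12). HAMP, HJV and LTF had 0 counts in all libraries.

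Iron chaperones and genes of IRP turnover gave 0 calls among 5 tested by edgeR at the adjusted threshold, 0 at an unadjusted p under 0.05, and 0 by DESeq2 and limma. FBXL5, the iron-sensing ubiquitin ligase subunit that marks IRP2 for degradation, measured 32.2 and 32.9 CPM in shNUP153 and 29.9 and 32.6 CPM in shControl (0.05, adjusted p = 0.64; −0.0078 without shControl replicate 1). HERC2 stood at −0.10 (adjusted p = 0.162; −0.18 and 0.0107 without shControl replicate 2) and PCBP4 at 0.17 (adjusted p = 0.271). The other ferritin chain genes FTMT and FTHL17 were at 0 counts.

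In the mitochondrial iron and iron-sulfur cluster list 6 of 18 fell and 2 rose (median −0.14), 44.4% called beside 32.4% of all tested genes. These 8 calls dropped to 4 without shNUP153 replicate 1, 2 without shNUP153 replicate 2, 5 without shControl replicate 2 and 5 with DESeq2. The mitochondrial iron importer gene SLC25A28, mitoferrin 2, measured 43.3 and 40.4 CPM in shNUP153 and 54.9 and 62.3 CPM in shControl (−0.49, edgeR adjusted p = 6.87e-07). FDXR, a reductase that feeds electrons to ferredoxin, stood at −0.31 (adjusted p = 0.00157; 0.0595 without shNUP153 replicate 2) and the chaperone gene HSPA9 at −0.16 (adjusted p = 0.00301; 0.081 without shNUP153 replicate 1 and 0.0682 with total-count scaling). The scaffold gene ISCU (0.16, adjusted p = 0.0382) and SLC25A37, mitoferrin 1 (0.15, adjusted p = 0.0338), were higher, and both calls ended when shControl replicate 2, shNUP153 replicate 1 or shNUP153 replicate 2 was left out (adjusted p = 0.0851 to 0.418), with DESeq2 (0.121 and 0.0984) and with no filter on low counts (0.0979 and 0.0817). In the cytosolic iron-sulfur list 1 of 9 fell and 1 rose (median −0.0069), 22.2% called beside 32.4% of all tested genes. The faller, CIAO2A, which acts in maturing the IRP1 protein, measured 32.0 and 34.9 CPM in shNUP153 and 75.6 and 71.1 CPM in shControl (2.19-fold lower, adjusted p = 7.47e-16). CIAO2B, its relative serving other cluster proteins, rose by 0.20 (adjusted p = 0.00558), which did not pass when shControl replicate 1, shNUP153 replicate 1 or shNUP153 replicate 2 was left out (adjusted p = 0.054 to 0.147). MMS19 was at −0.15 (adjusted p = 0.0548; −0.16 and 0.0461 without shControl replicate 1).

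Of 15 NRF2 and BACH1 regulators and common NRF2 targets 10 rose (median 0.32), 66.7% beside 15% of all tested genes, and 0 fell by edgeR's adjusted test. At an unadjusted p under 0.05, 1 was lower, the NRF2 target SRXN1, with 48 and 37 counts in shNUP153 and 59 and 67 in shControl (−0.59, adjusted p = 0.0627), named after its values were seen. NFE2L2, which codes for NRF2, measured 147 and 149 CPM in shNUP153 and 126 and 122 CPM in shControl (0.25, edgeR adjusted p = 0.00013). BACH1, the heme-sensing repressor, measured 17.8 and 16.9 CPM in shNUP153 and 18.5 and 16.7 CPM in shControl (−0.01, adjusted p = 0.945; 0.032 under upper-quartile and 0.052 under total-count scaling). KEAP1, which marks NRF2 for degradation, was at −0.10 (adjusted p = 0.159; −0.16 and 0.00998 without shControl replicate 1). The thioredoxin reductase gene TXNRD1 (0.66, adjusted p = 5.93e-14), the cystine importer gene SLC7A11 (0.69, adjusted p = 3.03e-11) and MAFK, a partner of NRF2 and BACH1 (0.76, adjusted p = 2.99e-09), rose. Of 7 tested ferroptosis regulators 71.4% were called, beside 32.4% of all tested genes: 2 rose, SLC3A2 (0.36, adjusted p = 4.10e-08) and GPX4 (0.43, adjusted p = 0.000164), and 3 fell, LPCAT3 (−0.35, adjusted p = 0.000367), DHODH (−0.36, adjusted p = 0.000632) and GCH1 (−0.23, adjusted p = 0.0143). The call for GCH1 was lost without shNUP153 replicate 1 (0.0605) or replicate 2 (0.194), with DESeq2 (0.0667) and with total-count scaling (0.0858).

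**Figure D4:**
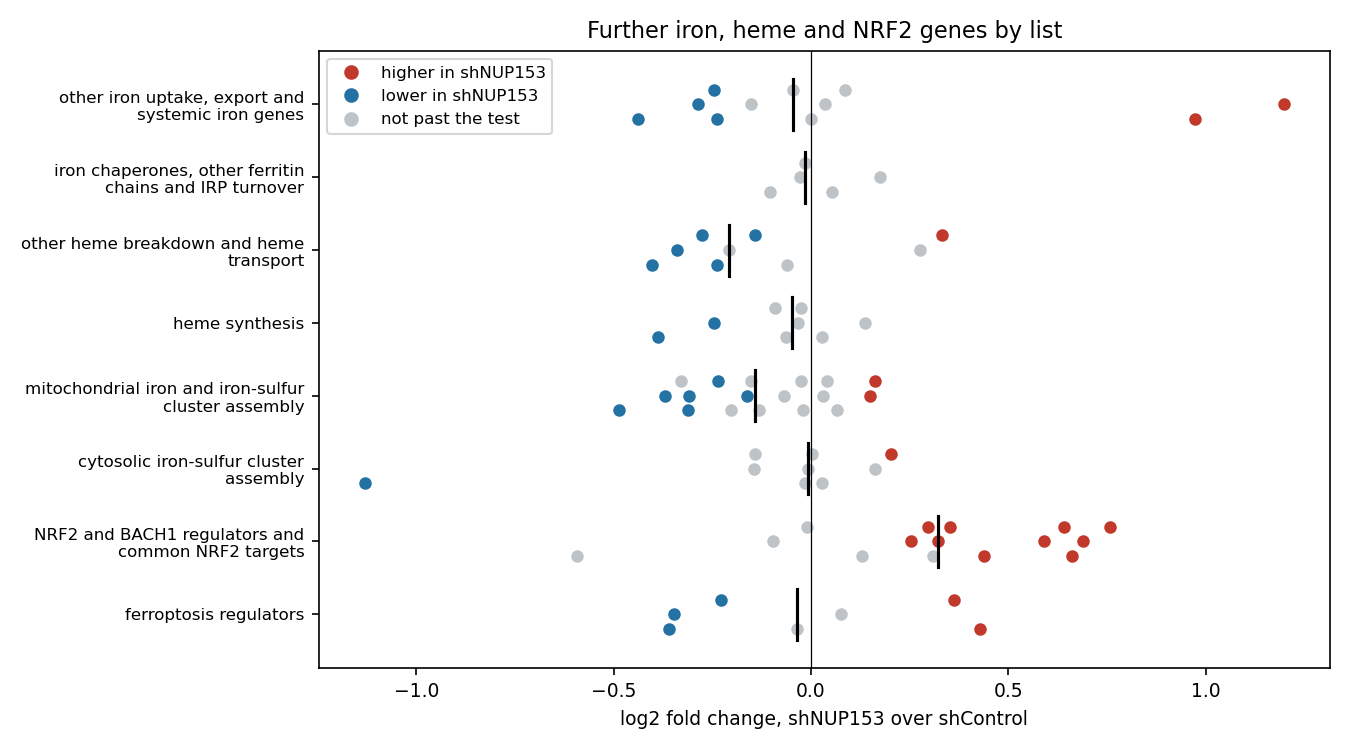
Log2 fold change of shNUP153 over shControl (horizontal axis) for the tested genes of each further list, with red points higher, blue points lower and grey points not past the test; vertical bars are list medians. The NRF2 and BACH1 list has its median at 0.32, and the heme breakdown and transport list at −0.21.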

How the data were processed

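The deposited table holds 1 row per Ensembl gene with a symbol and 1 column of whole-number counts per library, as the authors deposited them; its name says FPKM, but the columns sum to different totals and were taken as raw. Per the submitters' processing notes, kallisto, DESeq2, Bowtie2, deepTools and build hg19 were used, with no role or version; the counter, annotation and strand setting were not given in the sources used here. Coordinates and sequences come from GENCODE 29 on GRCh38, not from the files' build, and no file coordinate was used.

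Members and lists were chosen with earlier results of these data known. Genes were kept by filterByExpr (minimum count 10, minimum total 15), scaled with TMM and tested over all 16817 kept genes with edgeR 4.0.16 (R 4.3.3), quasi-likelihood, two-sided, with Benjamini-Hochberg adjustment at 0.05. SEs are absolute log2 fold changes over the root of their F statistics. The procedure was tested on simulated counts given the same spread for every gene, which does not reproduce how these libraries vary. Named were all members, NUP153, overlapping genes, 3 genes of smallest p per list, genes behind counts of 5 or fewer, and KEAP1, NFE2L2, BACH1, FBXL5 and HMOX2, less what is not reported here. The alternatives for the members and NUP153 were planned; those for BEST1 and single genes of the further lists were added after seeing the data. Alternatives used DESeq2 1.42.0, limma 3.58.1 (pseudocount 1), other scalings and filters, left-out libraries (the lone library of a group is then assumed to vary like the other group), a replicate block and summed rows. Replicates differed by more than sampling noise (chi-square per gene 3.09 in shNUP153 and 3.57 in shControl, over genes with 20 or more counts).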

Additional observations from a re-analysis of the deposited data

How the results depend on the processing

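Over their 11 to 14 alternatives, FTH1 (log2 fold change 0.42 to 0.57), FTL (0.48 to 0.56), TFRC (0.19 to 0.31) and HMOX1 (1.33 to 2.30) kept their direction and stayed past the threshold; HMOX1 and SLC40A1 were too low for the 5 CPM filter. The number of iron genes higher was 4 to 6, and 0 were lower under every alternative. IREB2 lost its call under 4 of 12 alternatives and SLC11A2 under 7 of 12. Values near 0 turned direction for ACO1 (0.015) and NCOA4 (0.0057), both under total-count scaling, and for BACH1 (0.032 under upper-quartile and 0.052 under total-count scaling, and 0.015 among genes averaging 5 CPM or more). With a library left out, STEAP3 spanned −0.020 to 0.090, BACH1 −0.094 to 0.059 and FBXL5 −0.0078 to 0.113.

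Over all genes, the number changed was 3556 with DESeq2 (1442 higher) and 3072 to 5201 with a library left out (1303 to 2327 higher and 1769 to 2874 lower), 3072 being without shNUP153 replicate 1 and 3342 without shNUP153 replicate 2; the cause was not tested, beyond that fewer samples entered these fits. Heme synthesis genes changed numbered 1 with upper-quartile scaling and 1 with DESeq2 in place of 2, and mitochondrial iron-sulfur genes 5 with DESeq2 in place of 8. With a library left out, the numbers changed were 0 to 1 for iron chaperones, 3 to 6 for other heme breakdown and transport, 1 to 2 for heme synthesis, 2 to 8 for the mitochondrial and 1 to 2 for the cytosolic iron-sulfur list. Same-numbered libraries did not deviate together (r = −0.01 over tested genes). With 2 libraries per group, this single correlation cannot show whether they shared a culture or infection. With a replicate block in edgeR, 5465 genes changed in place of 5448. Then 5 iron genes were higher in place of 6, SLC11A2 being at an edgeR adjusted p of 0.0586. Low counts limit SLC40A1 and HMOX1.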
